A study of Oryza sativa with 12 samples.

Results

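Leaves of the rice (Oryza sativa) genotype Goda Heenati were compared after 3 d under water and without submergence. The comparison rests on the 6 arrays whose sample titles name this genotype, 3 submerged and 3 control, out of 12 arrays in all. The other 6 arrays hold FR13A, a submergence-tolerant landrace known as the donor of the SUB1 locus, treated in the same way. Seedlings of both genotypes were 14 d old and grew in a glasshouse, in pots of paddy soil to which no fertilizer was added. Submerged seedlings stood in a 300 L tank under 70 cm of water, and controls stood in a tank that held none. The water was at 22 to 25 C and the air at 24 to 28 C. Leaf tips of Goda Heenati lay 45.9 cm (SD 2.9) below the surface, and those of FR13A 52.7 cm (SD 2.3). A sample was a pool of leaves from about 20 plants out of several pots, and the labels call the 3 samples of a group biological replicates. In pooled leaf RNA, fewer cells of a type and less RNA per cell cannot be told apart.

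Under water, gases move slowly into and out of a leaf, so that oxygen can run short and ethylene builds up. Plant cells short of oxygen make ATP by glycolysis and regenerate NAD through ethanol and lactate fermentation, fed by sucrose and starch. In rice, trapped ethylene is known to lower abscisic acid and to raise gibberellin action, which drives shoots to elongate, while ERF transcription factors of the SUB1 locus modulate that response. The comparison asked which transcripts of these pathways, and of the rest of leaf metabolism, differed after 3 d.

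Levels are log2 processed signal minus the 75th percentile of the array, so 0 marks a probe as bright as that percentile, and are listed in the order of replicates 1, 2 and 3. Fold changes are log2 ratios of submerged over control, given with their standard error (SE) from limma. A locus was called, and is said to have risen or fallen, at a limma adjusted p under 0.05 and a change of at least 2-fold. Between 30232 and 34189 of 42418 probes were well above background on the 6 arrays, and arrays of a group correlated across loci with r from 0.946 to 0.964. The number of arrays limits the precision, and the median SE over loci was 0.359. The replicate number is also the slide number. Slide 1 was scanned on another day with a lower ceiling, so that 2073 probes were saturated on its submerged array and 2406 on its control array, against 0 on slides 2 and 3. A saturated value is a lower limit, and levels printed for replicate 1 of bright genes carry it.

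Genes are identified here by rice locus, and no file or table used here pairs a locus with a name. Names below come from general knowledge and should be read together with the locus. A dagger (†) marks a name that the RefSeq gene table used here does not hold. The 5 leaf mesophyll markers were well above background on all 6 arrays, and all 5 were saturated on slide 1. None was called, and log2 fold changes were 0.07 for RBCS2† (Os12g0274700), a small subunit of Rubisco, 0.13 for RCA (Os11g0707000), Rubisco activase, and 0.20 for PSBO† (Os01g0501800), a subunit of the oxygen-evolving complex. The light-harvesting proteins CAB1R (Os09g0346500) and CAB2R (Os01g0600900) had 0.20 and 0.12. Without control replicate 1 the values were -1.21 for RBCS2†, -1.06 for RCA, -1.03 for CAB1R and -1.12 for PSBO† (limma adjusted p 0.608 to 0.657). These genes were also negative without submerged replicate 2 or 3, and stayed positive without each of the other Goda Heenati arrays. The small values therefore do not show that their levels were steady. Among 5 root markers the silicon transporter Lsi2 and the nitrate transporter NRT2.1 did not pass the background filter. The root-specific RCc3† (Os02g0662000) was well above background on 1 submerged and 3 control arrays (log2 fold change -1.64, adjusted p = 0.144), and the silicon channel Lsi1 (Os02g0745100) had a log2 fold change of -1.58 (adjusted p = 0.0806, or 0.0443 in a fit that takes the replicate number as a block). PT11 (Os01g0657100), a phosphate transporter of mycorrhizal roots, rose by 2.52 ± 0.54 (adjusted p = 0.00673), with 1 control array well above background. The 3 markers of meristems and dividing cells had log2 fold changes of 0.01 to 0.10, none called.

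Many transcripts differed. Of 22576 loci tested, 4677 (20.7%, or 6069 and 26.9% in the blocked fit) were called, 2055 (9.1%) higher and 2622 (11.6%) lower in submerged Goda Heenati leaves. The median log2 fold change over all loci was 0.09. Among the loci called higher the median fold was 3.82, 550 rose at least 8-fold and 286 at least 16-fold. Among those called lower the median fold was 4.14, 659 fell at least 8-fold and 312 at least 16-fold. The 3 slides each hold 1 array of both groups, and 2026 of the higher and 2582 of the lower loci changed in the same direction on all 3. The calls rest on these same arrays, so that count is no separate test of them. The submerged and control arrays did not overlap at 9781 loci (43.3%), which include 2013 of the higher and 2565 of the lower calls. Gene lists chosen for this tissue and treatment held 351 tested loci, of which 45 rose, 46 fell and 260 were not called, and another 40 did not pass the background filter. The share called was 25.9%, against 20.7% of all loci. Each list count below is to be read beside the 9.1% of all loci called higher and the 11.6% called lower. A list with few calls may not differ from those shares, and no list was tested against them. Loci whose name is in the table numbered 237 (27 higher, 32 lower), and those whose name is not 114 (18 higher, 14 lower). Without each of the 6 arrays in turn 55 of the 91 calls held, and the others are named below with their values. Of the 91 loci 61 had more than 1 kept probe, and none of these had a probe whose change ran the other way.

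**Figure D1:**
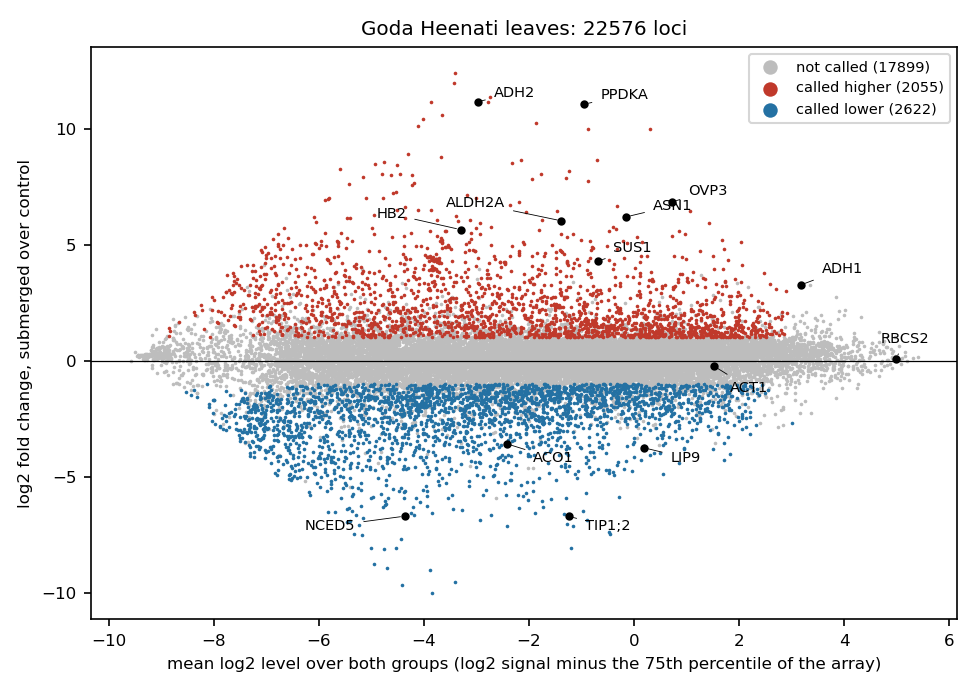
Log2 fold change (submerged over control) against mean log2 level for all 22576 loci in Goda Heenati leaves; points in colour are the 2055 loci called higher and the 2622 called lower. ADH2 and PPDKA near the top and NCED5 and TIP1;2 near the bottom lie far outside the grey band of loci that were not called, and RBCS2 lies inside it.

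Most measured fermentation genes rose. Of 9 members 6 rose, none fell and the median log2 fold change was 2.12. ADH2 (Os11g0210500), an alcohol dehydrogenase, had submerged levels of 2.40, 3.52 and 1.89 and control levels of -8.68, -8.28 and -8.70, with no control array well above background. It was at least 927-fold higher (adjusted p = 1.64e-06), and its 3 probes gave fitted log2 differences of 8.84 to 11.15. ALDH2A† (Os02g0730000), which oxidises acetaldehyde to acetate, stood at 1.74, 1.31 and 1.84 in submerged and -3.98, -4.37 and -4.83 in control leaves (log2 fold change 6.03 ± 0.43, adjusted p = 1.41e-05). No submerged array of either gene reached down to a control array. The alcohol dehydrogenase ADH1 (Os11g0210300) rose by 3.26 ± 0.92, from 1.44, 1.66 and 1.51 to 2.56, 6.37 and 5.47. Its first submerged value was saturated, and its call was lost without submerged replicate 2 or 3 or any control replicate (log2 fold change 2.48 to 3.32, adjusted p 0.0591 to 0.098). Pyruvate decarboxylase, which commits pyruvate to ethanol, was measured at 3 loci.

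PDC1 (Os05g0469600) rose (log2 fold change 2.12 ± 0.62, adjusted p = 0.0295), a value from its brightest probe, and its 4 probes ran up to 6.91. Its call was lost without submerged replicate 2 or 3 or control replicate 2 or 3 (log2 fold change 1.79 to 2.1, adjusted p 0.0742 to 0.0886). PDC2 (Os03g0293500) had submerged levels of 2.63, 5.67 and 4.71 and control levels of 2.11, 2.05 and 2.51, which do not overlap, and saturation on slide 1. Its log2 fold change was 2.12 (adjusted p = 0.0544, or 0.0196 with the block). PDC4† (Os01g0160100) was not called (log2 fold change 0.83, adjusted p = 0.0956). Lactate dehydrogenase, LDH† (Os02g0105400), rose by 2.27 ± 0.58 (adjusted p = 0.0169), a call lost without submerged replicate 2 or control replicate 3 (log2 fold change 1.71 to 1.80, adjusted p 0.0629 to 0.0641). AlaAT1† (Os10g0390500), an alanine aminotransferase that diverts pyruvate to alanine, rose by 1.01 ± 0.20 (adjusted p = 0.00429), close to the 2-fold limit. That call was lost without submerged replicate 2 or control replicate 1 or 2 (log2 fold change 0.94 to 0.98, adjusted p 0.0173 to 0.0203). A mitochondrial aldehyde dehydrogenase of the same family as ALDH2A, ALDH2B† (Os06g0270900), had a log2 fold change of 0.26 (adjusted p = 0.871).

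**Figure D2:**
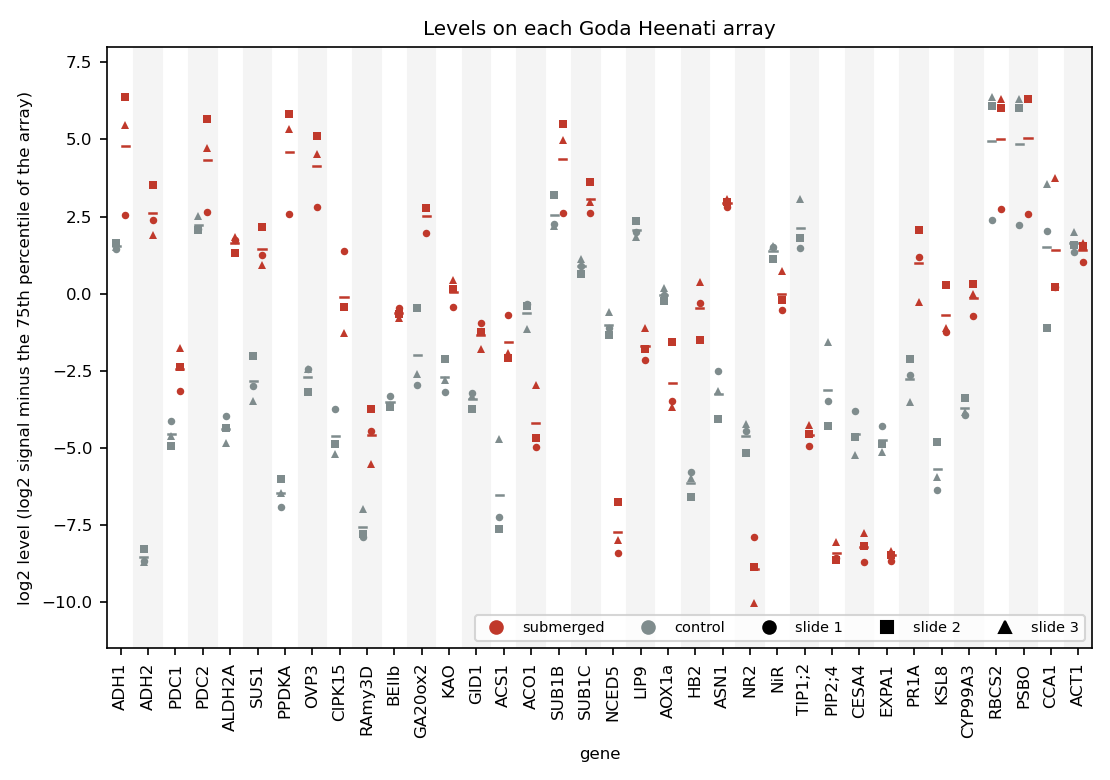
Log2 level of single genes on each of the 3 submerged and 3 control Goda Heenati arrays, with the marker shape giving the slide. Submerged and control points of ADH2, ALDH2A, PPDKA and ASN1 lie far apart, and the slide 1 points of bright genes sit low because that scan saturated.

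Among sucrose genes 1 of 13 measured was called higher and 3 lower, beside 9.1% higher and 11.6% lower over all loci. With the block 2 and 3 were called, and the median log2 fold change was 0.31. The sucrose synthase SUS1 (Os03g0401300) rose from -3.01, -2.02 and -3.48 to 1.24, 2.16 and 0.93 (log2 fold change 4.28 ± 0.54, adjusted p = 0.000373), with 1.28 to 4.37 over its 7 probes. Its relative SUS4 (Os03g0340500) had groups that did not overlap but was not called (log2 fold change 1.72, adjusted p = 0.0515, or 0.00288 with the block). INV3† (Os02g0106100), a vacuolar invertase that splits sucrose, showed the lowest value of the list. Its control levels were 1.48, -2.82 and -0.33 and its submerged levels -7.95, -7.68 and -5.75, of which only the third was well above background (log2 fold change -6.57 ± 1.56, adjusted p = 0.0117). The tonoplast sucrose transporter SUT2 (Os12g0641400) fell by 1.26 (adjusted p = 0.0274), a call lost without submerged replicate 1 or 2 or control replicate 1 or 3 (log2 fold change -1.22 to -1.12, adjusted p 0.0779 to 0.0873). The sugar exporter SWEET4 (Os02g0301100) fell by 1.67 (adjusted p = 0.0374), lost without any submerged replicate or control replicate 1 or 2 (log2 fold change -1.77 to -1.37, adjusted p 0.0597 to 0.121).

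Starch mobilisation and its regulators gave 2 higher and 0 lower of 10 measured. CIPK15 (Os11g0113700), a kinase that links oxygen shortage to alpha-amylase, had levels of 1.39, -0.42 and -1.28 in submerged and -3.73, -4.88 and -5.2 in control leaves (log2 fold change 4.50 ± 1.04, adjusted p = 0.0104). RAmy3D (Os08g0473900), an alpha-amylase induced by sugar starvation, stood at -4.46, -3.74 and -5.53 against -7.91, -7.78 and -7.00, with 1 control array well above background (log2 fold change 2.98 ± 0.69, adjusted p = 0.0106). The trehalose phosphate phosphatase TPP7, known for germination under water, and 5 other alpha-amylases did not pass the filter. MYBS1 (Os01g0524500), which activates alpha-amylase, had a log2 fold change of 0.93 (adjusted p = 0.0732) and SnRK1A (Os05g0530500), a starvation kinase upstream of it, 0.28 (adjusted p = 0.278).

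Of 12 starch synthesis genes 1 rose and 2 fell. The branching enzyme BEIIb† (Os02g0528200) rose from -3.31, -3.68 and -3.60 to -0.47, -0.67 and -0.80 (log2 fold change 2.89 ± 0.24, adjusted p = 3.56e-05), and the replicates of each group lay close together. ADP-glucose pyrophosphorylase makes the glucosyl donor of starch, and subunit genes of it fell at 2 loci. The small subunit AGPS1† (Os09g0298200) fell from -1.40, -1.42 and -1.65 to -2.87, -2.94 and -2.94 (log2 fold change -1.43 ± 0.24, adjusted p = 0.00179), and the large subunit AGPL3† (Os03g0735000) fell by 1.76 (adjusted p = 0.042), a call lost without submerged replicate 1 or 2 or any control replicate (log2 fold change -1.95 to -1.26, adjusted p 0.0624 to 0.149). AGPL2† (Os01g0633100) lay just under the fold limit at -0.99 (adjusted p = 0.00706), and AGPS2 (Os08g0345800) had a positive value below it, 0.73 (adjusted p = 0.0249).

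Among 17 genes of cytosolic glycolysis and pyrophosphate metabolism 2 rose and 2 fell, or 4 and 3 with the replicate block. The largest change was in PPDKA (Os03g0432100), a pyruvate orthophosphate dikinase, which interconverts pyruvate and phosphoenolpyruvate at the cost of pyrophosphate or ATP. Its control levels were -6.93, -6.01 and -6.48, 2 of them well above background, and its submerged levels 2.58, 5.83 and 5.33, the first saturated (log2 fold change 11.05 ± 0.86, adjusted p = 2.61e-05). Another gene of that enzyme, PPDKB (Os05g0405000), had a log2 fold change of -0.01 (adjusted p = 0.997). Vacuolar proton pyrophosphatases pump protons with pyrophosphate in place of ATP, and their genes moved in opposite directions. OVP3† (Os02g0802500) rose from -2.44, -3.21 and -2.43 to 2.81, 5.13 and 4.51 (log2 fold change 6.84 ± 0.63, adjusted p = 6.7e-05). OVP1† (Os06g0178900) fell from -0.80, 0.33 and -0.86 to -2.90, -2.12 and -2.66 (log2 fold change -2.12 ± 0.41, adjusted p = 0.00442).

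Glycolytic enzymes themselves gave 1 call, the hexokinase HXK6 (Os01g0742500), which fell by 1.19 ± 0.25 (adjusted p = 0.00674). With the block 3 more passed: the hexokinase HXK7 (Os05g0187100) (log2 fold change 1.53, adjusted p = 0.152, or 0.0262 with the block), the cytosolic aldolase FBA (Os05g0402700) (1.61, 0.0602 and 0.00372) and, in the lower direction, the enolase ENO2† (Os06g0136600) (-1.02, 0.0602 and 0.00152). Triose phosphate isomerase TPI (Os01g0147900) and the cytosolic kinase PGKc† (Os02g0169300) were saturated on slide 1 in both groups, where no change can be read. Their values were 0.79 (adjusted p = 0.466) and 0.52 (adjusted p = 0.598).

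Gibberellin genes were higher at several steps, with 5 of 13 measured members rising and 1 falling. KAO (Os06g0110000), which makes the first gibberellin of the pathway, rose from -3.19, -2.12 and -2.81 to -0.44, 0.13 and 0.44 (log2 fold change 2.75 ± 0.36, adjusted p = 0.000499). GA20ox2 (Os01g0883800), a later step and the product of the semidwarf locus, had submerged levels of 1.96, 2.77 and 2.79 and control levels of -2.95, -0.46 and -2.6 (log2 fold change 4.51 ± 0.86, adjusted p = 0.00379). GA20ox1† (Os03g0856700), of the same enzyme family, rose by 1.89 (adjusted p = 0.0462), a call lost without submerged replicate 1 or 2 or control replicate 2 or 3 (log2 fold change 1.25 to 2.05, adjusted p 0.0807 to 0.157). The receptor gene GID1 (Os05g0407500) rose by 2.08 ± 0.32 (adjusted p = 0.00123), and so did SLRL1 (Os01g0646300), a repressor related to DELLA proteins, by 1.89 ± 0.50 (adjusted p = 0.0189), a call lost without submerged replicate 2 or control replicate 1 (log2 fold change 1.42 to 1.61, adjusted p 0.0661 to 0.0745). GA2ox3† (Os01g0757200), an enzyme that inactivates gibberellins, fell from -2.01, -1.18 and -2.36 to -6.96, -4.85 and -5.58, with 2 submerged arrays well above background (log2 fold change -3.94 ± 0.61, adjusted p = 0.00123). The DELLA repressor SLR1 (Os03g0707600) had a change below the fold limit, 0.76 (adjusted p = 0.0154), and EUI1 (Os05g0482400), another inactivating enzyme, was not called (log2 fold change -0.85, adjusted p = 0.184). The early enzymes CPS1 (Os02g0278700), KS1 (Os04g0611800) and KO2 (Os06g0570100) were not called, at -0.19, -0.17 and 0.94, and the GA3ox genes did not pass the filter.

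Ethylene genes split, with 3 higher and 3 lower of 12. The synthase ACS1 (Os03g0727600), which makes the ethylene precursor, had submerged levels of -0.70, -2.1 and -1.92 and control levels of -7.24, -7.63 and -4.72, with 1 control array well above background (log2 fold change 4.96 ± 0.94, adjusted p = 0.00377, and 2.44 at its other probe). ACO1 (Os09g0451400), an enzyme of the last step, fell from -0.35, -0.41 and -1.14 to -4.99, -4.68 and -2.97 (log2 fold change -3.58 ± 0.64, adjusted p = 0.00279). ACO3† (Os02g0771600), of the same family, had a log2 fold change of -1.0 (adjusted p = 0.0567, or 0.03 with the block). Of the receptors ETR2 (Os04g0169100) rose by 1.59 ± 0.35 (adjusted p = 0.00794), while ERS2 (Os05g0155200) was well above background on all control arrays and on no submerged array, at least 8.78-fold lower (adjusted p = 0.00138). ERS1 (Os03g0701700) and ETR3 (Os02g0820900) were not called, at -0.31 and 0.31. EIN2 (Os07g0155600), a central component of ethylene signalling, rose by 1.09 ± 0.22 (adjusted p = 0.00509), a call lost without control replicate 3 (log2 fold change 0.91, adjusted p = 0.0212).

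Among ERF and DREB factors 1 of 7 rose and 2 fell, or 2 and 3 with the block. SUB1C† (Os09g0286600) of the SUB1 locus rose from 0.91, 0.62 and 1.12 to 2.6, 3.63 and 2.96, the first submerged value saturated (log2 fold change 2.18 ± 0.33, adjusted p = 0.00107). Its neighbour SUB1B† (Os09g0287000), saturated in both groups on slide 1, had levels of 2.62, 5.5 and 4.97 and 2.25, 3.20 and 2.18 (log2 fold change 1.82, adjusted p = 0.141, or 0.0142 with the block). The DREB1 genes, factors of cold and drought responses, all had lower submerged levels. DREB1B (Os09g0522000) had control levels of 1.43, 3.4 and 4.35 and submerged levels of -2.13, -0.92 and -1.03 (log2 fold change -4.42 ± 1.43, adjusted p = 0.0443), and its call was lost without any submerged replicate or control replicate 2 or 3 (log2 fold change -4.64 to -3.77, adjusted p 0.0749 to 0.135). DREB1C (Os06g0127100) was well above background in control leaves alone, at least 3.54-fold lower (adjusted p = 0.0481), a call lost without any submerged replicate or control replicate 2 or 3 (log2 fold change -3.07 to -2.19, adjusted p 0.0903 to 0.16). DREB1A (Os09g0522200) had a log2 fold change of -3.65 (adjusted p = 0.0536, or 0.00451 with the block).

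Abscisic acid genes were lower on balance, with 6 of 17 measured members falling, 2 rising and a median log2 fold change of -1.58. NCED5† (Os12g0617400), an enzyme of the committed step of abscisic acid synthesis, stood at -1.11, -1.36 and -0.59 in control leaves and -8.43, -6.75 and -7.98 in submerged leaves, with no array above the background limit there. It was at least 65.6-fold lower (adjusted p = 3e-05). Another gene of this step, NCED3 (Os03g0645900), was not called (log2 fold change -0.78, adjusted p = 0.129), nor was the earlier enzyme ZEP1 (Os04g0448900) (log2 fold change -1.61, adjusted p = 0.0709, or 0.00153 with the block). Of the enzymes that break the hormone down, ABA8ox3 (Os09g0457100) fell from -4.05, -4.12 and -3.53 to -8.30, -8.69 and -6.15, with 1 submerged array well above background (log2 fold change -3.81 ± 0.69, adjusted p = 0.00295). ABA8ox1 (Os02g0703600) and ABA8ox2 (Os08g0472800) were not called, at 0.21 and 0.17.

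Dehydrins, proteins made in drying cells in response to abscisic acid, had lower levels in submerged than in control leaves. LIP9 (Os02g0669100) fell from 2.01, 2.35 and 1.84 to -2.14, -1.79 and -1.12 (log2 fold change -3.75 ± 0.39, adjusted p = 0.000116). RAB16B (Os11g0454200) and RAB16C (Os11g0454000) were well above background on all control arrays and no submerged array, at least 5.99-fold and 7.61-fold lower (adjusted p = 0.00145 and 0.00064). RAB16A (Os11g0454300) was well above background on all 6 arrays and was not called (log2 fold change -2.07, adjusted p = 0.0875). The bZIP factors of abscisic acid signalling moved separately. bZIP12† (Os01g0867300) rose by 1.59 ± 0.30 (adjusted p = 0.00332), ABI5† (Os01g0859300) rose by 1.74 ± 0.23 (adjusted p = 0.000536) with 1 control array well above background, and bZIP72† (Os09g0456200) fell by 1.58 ± 0.33 (adjusted p = 0.00603). TRAB1 (Os08g0472000), bZIP23 (Os02g0766700) and bZIP46† (Os06g0211200) were not called, with values from -0.45 to 0.59.

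Other growth hormones gave few calls. Of 8 brassinosteroid genes the synthesis enzyme D11 (Os04g0469800) rose by 1.01 ± 0.20 (adjusted p = 0.00542), a call lost without submerged replicate 2 or control replicate 3 (log2 fold change 0.87 to 0.96, adjusted p 0.0234 to 0.0248). BU1 (Os06g0226500), a protein induced by brassinosteroid, was well above background on control arrays alone, at least 2.3-fold lower (adjusted p = 0.0393), a call lost without any submerged replicate or control replicate 1 or 2 (log2 fold change -3.44 to -2.27, adjusted p 0.0607 to 0.133). Of 9 auxin and cytokinin genes 1 rose, the auxin-conjugating enzyme GH3-2 (Os01g0764800) (log2 fold change 1.69 ± 0.45, adjusted p = 0.0202), and its call was lost without submerged replicate 2 or 3 or control replicate 2 or 3 (log2 fold change 1.58 to 1.65, adjusted p 0.0551 to 0.0638).

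Of 16 jasmonate genes 1 rose and 3 fell, or 3 and 4 with the block. The lipoxygenase HI-LOX (Os08g0508800) rose from 0.86, -0.09 and -0.21 to 2.37, 3.59 and 2.58 (log2 fold change 2.66 ± 0.50, adjusted p = 0.00372). OPR7 (Os08g0459600), a later synthesis enzyme, fell by 1.16 ± 0.24 (adjusted p = 0.00608), a call lost without submerged replicate 1 (log2 fold change -0.94, adjusted p = 0.0231). JAZ proteins repress jasmonate responses and are themselves induced by the hormone. JAZ8 (Os09g0439200) fell from 0.88, 0.39 and 1.32 to -3.71, -2.39 and -2.58 (log2 fold change -3.75 ± 0.36, adjusted p = 8.22e-05), and JAZ6 (Os03g0402800) fell by 1.5 ± 0.39 (adjusted p = 0.0176), a call lost without submerged replicate 1 or control replicate 3 (log2 fold change -1.34 to -1.06, adjusted p 0.0517 to 0.0637). The other 5 measured JAZ genes had log2 fold changes from -1.6 to -0.14, none called, although JAZ10 (Os03g0181100) had adjusted p = 0.0872, or 0.034 with the block. Allene oxide synthase AOS2 (Os03g0225900) had 2.41 (adjusted p = 0.0536, or 0.0254 with the block), and the receptor component COI1b (Os05g0449500) 1.02 (adjusted p = 0.0994, or 0.00276).

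**Figure D3:**
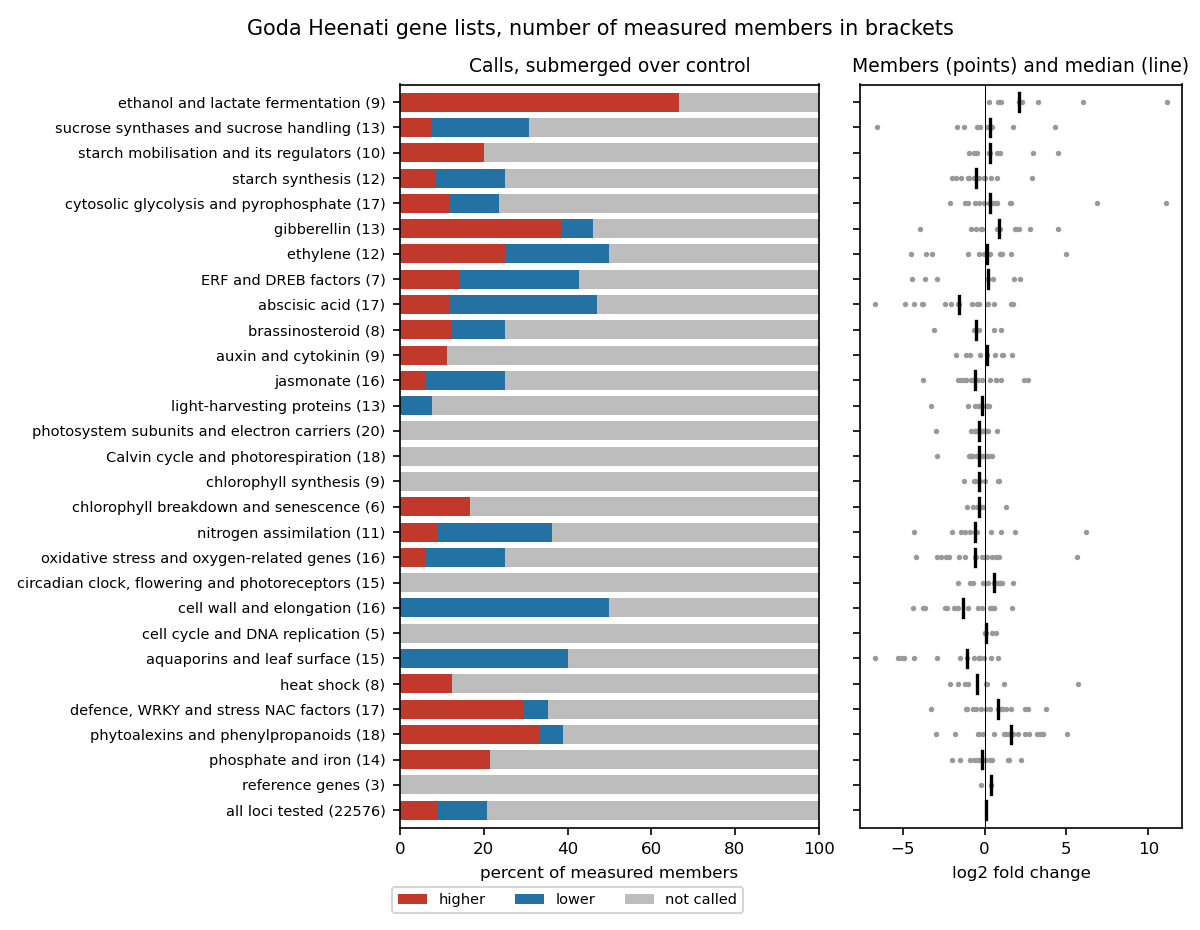
Share of the measured members of each gene list that were called higher, called lower or not called in Goda Heenati (left), and the log2 fold change of each member with the list's median (right). Fermentation genes had 6 of 9 members higher, and cell wall genes 8 of 16 and aquaporin and leaf surface genes 6 of 15 lower, beside 9.1% higher and 11.6% lower over all loci.

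Photosynthesis genes could be read only in part, because the scanner ceiling on slide 1 reached most of them. Light-harvesting proteins, photosystem subunits and electron carriers, and the Calvin cycle with photorespiration held 51 measured loci, of which 1 fell and none rose, or 3 and 0 with the block. In 36 of them both slide 1 arrays were saturated, and there the slide 1 log2 fold change was fixed between 0.297 and 0.406. Their median SE was 1.22, or 0.256 with the block, and none of the 36 was called. In 12 more the control array alone was saturated, which by itself places the control above the submerged signal on that slide, so the sign of their changes is not read here. Over the 51 loci the median log2 fold change was 0.345 on slide 1, -0.628 on slide 2 and -0.389 on slide 3. On both unsaturated slides 36 of the 51 loci were lower in submerged leaves, and 2 were higher. Over all 22576 loci tested 7918 were lower and 8904 higher on both of these slides.

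LHCA5† (Os02g0764500), a light-harvesting protein of photosystem I, was the locus that fell, from 0.63, -1.0 and -0.09 to -3.72, -4.79 and -1.78 (log2 fold change -3.27 ± 0.97, adjusted p = 0.0314), a call lost without submerged replicate 1 or 2 or control replicate 1 or 3 (log2 fold change -3.24 to -2.59, adjusted p 0.0769 to 0.118). PSBS1† (Os01g0869800), which triggers the dissipation of excess light as heat, had levels of -1.01, -1.2 and 2.25 in submerged and 2.38, 2.78 and 3.71 in control leaves (log2 fold change -2.94, adjusted p = 0.0705, or 0.00321 with the block). PGLP1† (Os04g0490800), the first enzyme of photorespiration, had -2.19, -2.67 and 0.77 and 2.13, 0.71 and 1.71 (log2 fold change -2.88, adjusted p = 0.0727, or 0.0112). In both genes the third submerged array was the highest of its group. The carbonic anhydrase CA1† (Os01g0639900), phosphoribulokinase PRK† (Os02g0698000) and the photosystem I subunit PSAN† (Os12g0189400) were lower on slides 2 and 3 but not called. Their log2 fold changes were -1.41 and -1.19 for CA1†, -1.88 and -0.95 for PRK†, and -1.54 and -1.32 for PSAN†.

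**Figure D4:**
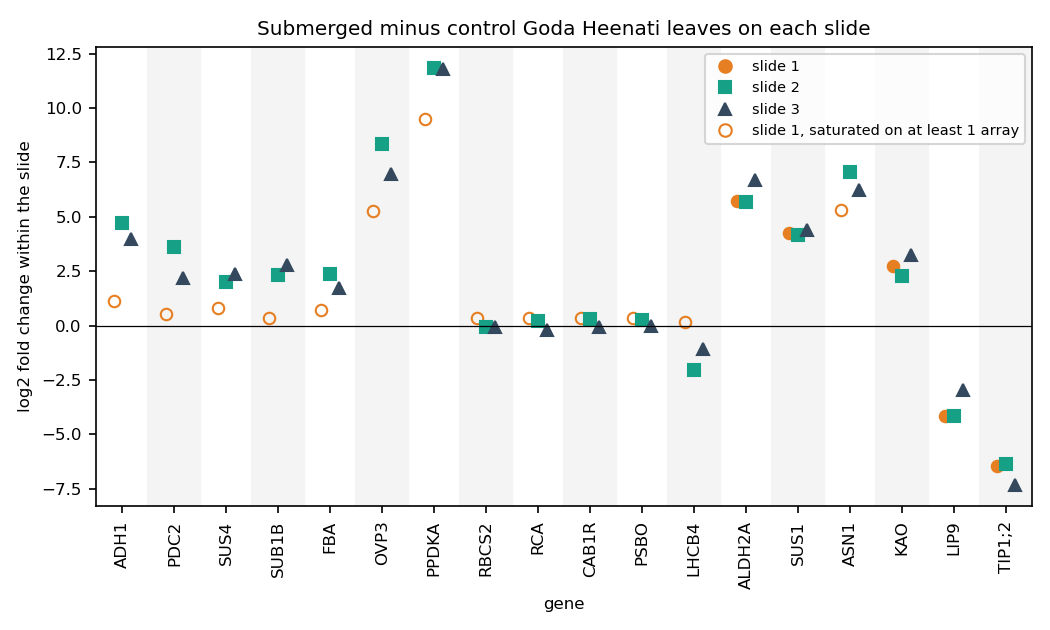
Log2 fold change within each of the 3 slides for selected genes in Goda Heenati leaves, with open symbols where an array of slide 1 was saturated. Saturated genes such as PDC2 and FBA give a smaller difference on slide 1 than on slides 2 and 3, and CAB1R and RBCS2 sit near 0.

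With the saturated spots left out, 12 list loci that were not called before passed the test, and 1 lost its call. Those that passed in the higher direction were PDC2 (log2 fold change 2.97, adjusted p = 0.00103), FBA (2.23, 0.00269), CRY2† (2.41, 0.00115), SUB1B† (2.55, 0.0173), SUS4 (2.04, 0.0446), COI1b (1.46, 0.0105) and PAL1† (Os02g0626100), which starts phenylpropanoid synthesis (1.59, 0.0155). In the lower direction were PIP2;7 (-3.90, 0.0061), MT2b (-3.43, 0.0276), ZEP1 (-2.15, 0.0205), the ascorbate peroxidase APX2 (Os07g0694700) (-1.97, 0.00927) and the jasmonate enzyme AOC (Os03g0438100) (-1.18, 0.00974). GA20ox1† was the locus that lost its call (1.25, 0.127). Among the 51 photosynthesis loci the count was again 1 lower and 0 higher.

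The calls differed in how far they depended on the processing. Among the named genes 31 were called in Goda Heenati under every alternative that gave them a value, among them ADH2, ALDH2A†, SUS1, CIPK15, NCED5†, JAZ8 and TIP1;2. The other called genes missed the threshold in at least 1 of them, most often with normexp background correction or on slides 2 and 3 alone.

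Chlorophyll synthesis gave no call among 9 measured genes, or 1 lower with the block. The magnesium chelatase subunit CHLH (Os03g0323200) had a log2 fold change of -0.33 (adjusted p = 0.714), and the protochlorophyllide oxidoreductases PORA (Os04g0678700) and PORB (Os10g0496900) -0.56 and -0.66 (adjusted p = 0.771 and 0.217). Divinyl reductase DVR (Os03g0351200) had -1.23 (adjusted p = 0.121, or 0.00814 with the block). Among 6 genes of chlorophyll breakdown and senescence 1 rose, PAO† (Os03g0146400), which opens the chlorophyll ring (log2 fold change 1.3 ± 0.37, adjusted p = 0.028), and its call was lost without submerged replicate 2 or 3 or control replicate 1 or 2 (log2 fold change 0.99 to 1.29, adjusted p 0.0699 to 0.0966). SGR (Os09g0532000), NYC1 (Os01g0227100) and NYC3† (Os06g0354700), which act before it, had values of -0.43, -1.05 and -0.68 and were not called.

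Nitrogen genes were lower at the entry steps, with 3 of 11 falling and 1 rising, or 4 and 2 with the block. Nitrate reductase NR2† (Os02g0770800) was well above background on all control arrays and on no submerged array, at least 5.4-fold lower (adjusted p = 0.00985). A second nitrate reductase, NIA1 (Os08g0468100), had levels of -0.71, -0.91 and 0.59 and 2.0, 0.41 and 2.51 (log2 fold change -1.98, adjusted p = 0.12, or 0.00307 with the block). Nitrite reductase NiR† (Os01g0357100) fell by 1.41 ± 0.34 (adjusted p = 0.0129), a call lost without submerged replicate 1 (log2 fold change -1.14, adjusted p = 0.052). The cytosolic glutamine synthetase GS1;2 (Os03g0223400) fell by 1.18 ± 0.32 (adjusted p = 0.0229), lost without submerged replicate 1 or 2 or control replicate 1 or 3 (log2 fold change -1.18 to -0.99, adjusted p 0.06 to 0.0868). In contrast ASN1† (Os03g0291500), an asparagine synthetase, rose from -2.51, -4.05 and -3.17 to 2.81, 2.98 and 3.06 (log2 fold change 6.2 ± 0.42, adjusted p = 1.03e-05). Asparagine synthetases make the nitrogen-rich amide that plants use to store and move nitrogen. NADH-GOGAT2 (Os05g0555600), a glutamate synthase, had a log2 fold change of 1.86 (adjusted p = 0.303, or 0.0413 with the block).

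Of 16 genes of oxidative stress and oxygen use 1 rose and 3 fell, or 1 and 5 with the block. HB2 (Os03g0226200), a non-symbiotic haemoglobin that binds oxygen tightly, rose from -5.78, -6.61 and -5.99 to -0.31, -1.5 and 0.36 (log2 fold change 5.65 ± 0.54, adjusted p = 8.22e-05), and its relative HB1 (Os03g0233900) was not called (log2 fold change 0.89, adjusted p = 0.215). Alternative oxidases, which pass electrons to oxygen in mitochondria without making ATP, had lower levels. AOX1a (Os04g0600200) fell from -0.05, -0.24 and 0.20 to -3.49, -1.56 and -3.68 (log2 fold change -2.88 ± 0.46, adjusted p = 0.00148). AOX1d† (Os02g0318100) fell by 2.36 ± 0.52 (adjusted p = 0.00777) and AOX1b† (Os04g0600300) by 4.19 ± 1.1 (adjusted p = 0.0191), each with 2 submerged arrays well above background. The call of AOX1b† was lost without control replicate 1 or 3 (log2 fold change -4.17 to -4.02, adjusted p 0.052 to 0.0577), and AOX1c† (Os02g0700400) had -2.15 (adjusted p = 0.229, or 0.0131 with the block). The metallothionein MT2b (Os05g0111300) had a log2 fold change of -2.67 (adjusted p = 0.0617, or 0.00258). Catalases, ascorbate peroxidases and superoxide dismutases were not called, with 9 values from -1.58 for CATC† (Os03g0131200) to 0.71 for MnSOD (Os05g0323900).

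Clock and flowering genes gave no call among 15, or 2 higher and 1 lower with the block. CCA1 (Os08g0157600), a morning repressor, had levels of 0.23, 0.21 and 3.77 and 2.04, -1.11 and 3.56, and its range within a group exceeded the difference between groups (log2 fold change -0.10, adjusted p = 0.973). GI (Os01g0182600), an evening protein, had 0.55 (adjusted p = 0.664). The 3 that passed with the block were PRR37 (Os07g0695100) (-1.65, adjusted p = 0.0597, or 0.00589 with the block), PRR59† (Os11g0157600) (1.05, 0.14 and 0.0258) and the cryptochrome CRY2† (Os02g0625000) (1.71, 0.0656 and 0.00959).

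Cell wall genes were lower, with 8 of 16 falling, none rising (9 and 1 with the block) and a median log2 fold change of -1.32. Cellulose synthases of primary walls fell at 4 loci. CESA5 (Os03g0837100) fell from -1.21, -1.72 and -1.91 to -3.4, -3.82 and -3.30 (log2 fold change -1.89 ± 0.30, adjusted p = 0.00147), and CESA1 (Os05g0176100) from 0.96, 0.27 and 0.44 to -2.29, -2.25 and -1.05 (log2 fold change -2.42 ± 0.52, adjusted p = 0.007). CESA3 (Os07g0424400) and CESA8 (Os07g0208500) fell by 1.68 and 1.6 (adjusted p = 0.0393 and 0.0341). The call of CESA3 was lost without submerged replicate 1 or 2 or any control replicate (log2 fold change -1.80 to -1.46, adjusted p 0.0686 to 0.126), and that of CESA8 without submerged replicate 1 or 2 or any control replicate (log2 fold change -1.71 to -1.36, adjusted p 0.0623 to 0.12). CESA6 (Os07g0252400) had -1.03 (adjusted p = 0.0645, or 0.0113 with the block).

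Secondary walls, which stiffen vessels and fibres, use other cellulose synthases. CESA4 (Os01g0750300) was well above background on control arrays alone, at least 5.47-fold lower (adjusted p = 0.00384), and CESA7 (Os10g0467800) fell from -2.34, -3.90 and -4.52 to -8.72, -8.19 and -6.93, with 1 submerged array well above background (log2 fold change -4.36 ± 0.95, adjusted p = 0.00777). CSLF6 (Os08g0160500), which makes the mixed-linkage glucan of grass walls, fell by 2.29 ± 0.51 (adjusted p = 0.00855). Expansins loosen walls during growth, and of 6 measured 1 fell. That was EXPA1 (Os04g0228400), at least 4.91-fold lower with no submerged array well above background (adjusted p = 0.000104). EXPA4 (Os05g0477600) was not called (log2 fold change 0.58, adjusted p = 0.512), and EXPB4 (Os10g0556100) had 1.70 (adjusted p = 0.0536, or 0.0237 with the block). The 5 genes of the cell cycle and DNA replication were not called, among them PCNA (Os02g0805200), the sliding clamp (log2 fold change 0.03, adjusted p = 0.968).

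Water channels and surface waxes gave 6 lower and 0 higher of 15. TIP1;2 (Os01g0975900), a vacuolar aquaporin, fell from 1.47, 1.81 and 3.06 to -4.96, -4.54 and -4.27 (log2 fold change -6.71 ± 0.53, adjusted p = 2.64e-05), with -6.71 to -4.64 over its 3 probes. Plasma membrane aquaporins fell at 4 loci. PIP1;3 (Os02g0823100) fell from 1.66, 1.77 and 2.79 to -4.12, -3.92 and -0.49 (log2 fold change -4.91 ± 1.02, adjusted p = 0.00595) and PIP2;2 (Os02g0629200) by 4.33 ± 1.01 (adjusted p = 0.0108), and in both the third submerged array was the highest of its group. PIP2;4 (Os07g0448100) and PIP2;5 (Os07g0448400) were well above background on control arrays alone, at least 15.3-fold and 8.24-fold lower (adjusted p = 0.00193 and 0.000311). Close relatives with saturated slide 1 arrays were not called, such as PIP1;1 (Os02g0666200) at -0.37 (adjusted p = 0.807). PIP2;7 (Os09g0541000) had -2.87 (adjusted p = 0.0745, or 0.0129 with the block) and PIP2;6 (Os04g0233400) -1.06 (0.0637 and 0.00846). Of the surface genes WSL2† (Os09g0426800), needed for leaf wax, fell by 1.51 (adjusted p = 0.0254), a call lost without submerged replicate 1 or 2 or control replicate 1 or 3 (log2 fold change -1.56 to -1.24, adjusted p 0.0553 to 0.0921). LGF1† (Os11g0499600), needed for the gas film that submerged rice leaves hold, was not called (log2 fold change -0.25, adjusted p = 0.777).

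Heat shock genes gave 1 higher and 0 lower of 8, or 2 and 3 with the block, in leaves that were kept in water at 22 to 25 C against air at 24 to 28 C. HSP26.7 (Os03g0245800), a chloroplast small heat shock protein, had levels of -2.0, -0.95 and -3.51 in submerged and -8.93, -6.67 and -7.94 in control leaves, with 1 control array well above background (log2 fold change 5.70 ± 1.13, adjusted p = 0.00469). HSP101 (Os05g0519700), a chaperone that dissolves aggregates, had a log2 fold change of -1.59 (adjusted p = 0.122, or 0.007 with the block), and the small heat shock protein HSP16.9A (Os01g0136100) -2.14 (0.139 and 0.00747). The factor HSFA2D (Os03g0161900) had -1.22 (0.43 and 0.0011) and HSFB2B (Os08g0546800) 1.18 (0.16 and 0.0356). What part the water temperature had in these values was not tested.

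Defence genes gave 5 higher and 1 lower of 17. The pathogenesis-related gene PR1A† (Os07g0129200) rose from -2.63, -2.13 and -3.52 to 1.18, 2.07 and -0.27 (log2 fold change 3.75 ± 0.63, adjusted p = 0.00183). PR1B† (Os01g0382000) rose by 2.66 ± 0.79 (adjusted p = 0.0326), a call lost without submerged replicate 1 or 2 or control replicate 2 or 3 (log2 fold change 2.23 to 2.47, adjusted p 0.0965 to 0.115). RSOsPR10† (Os12g0555000) rose by 2.46 ± 0.70 (adjusted p = 0.0263), lost without submerged replicate 1 or 2 or any control replicate (log2 fold change 2.04 to 2.63, adjusted p 0.0501 to 0.0992). NPR1 (Os01g0194300), a regulator of salicylic acid responses, rose by 1.09 (adjusted p = 0.0316) over 2 submerged and 3 control values, since an outlier spot was left out, and its call was lost without submerged replicate 1 or control replicate 1 or 3 (log2 fold change 0.87 to 1.05, adjusted p 0.081 to 0.178). The factor WRKY13† (Os01g0750100) rose by 1.05 (adjusted p = 0.00999), a call lost without submerged replicate 1 or 2 or control replicate 2 (log2 fold change 0.92 to 0.99, adjusted p 0.0371 to 0.0422), and 7 other WRKY genes were not called. NAC5 (Os11g0184900), a factor of stress responses, fell from 2.21, 2.25 and 3.70 to -0.06, -0.35 and -1.24 (log2 fold change -3.27 ± 0.53, adjusted p = 0.00151).

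Genes of diterpenoid phytoalexins, antimicrobial compounds of rice, rose in 3 branches. Of 18 measured genes of phytoalexins and phenylpropanoids 6 rose and 1 fell, or 9 and 1 with the block, and the median log2 fold change was 1.61. KSL8† (Os11g0474800), a synthase of the oryzalexin branch, rose from -6.36, -4.81 and -5.95 to -1.23, 0.27 and -1.11 (log2 fold change 5.02 ± 0.69, adjusted p = 0.000644). In the momilactone branch CYP99A3 (Os04g0178400) rose from -3.94, -3.38 and -3.85 to -0.73, 0.32 and -0.02 (log2 fold change 3.58 ± 0.79, adjusted p = 0.00827) and the cyclase CPS4 (Os04g0178300) by 3.57 ± 0.90 (adjusted p = 0.0154), a call lost without submerged replicate 2 (log2 fold change 3.25, adjusted p = 0.0587). CYP99A2 (Os04g0180400) had 3.41 (adjusted p = 0.0668, or 0.0364 with the block) and KSL4 (Os04g0179700) 2.73 (adjusted p = 0.0976).

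In the phytocassane branch the cyclase CPS2 (Os02g0571100) rose by 2.44 ± 0.67 (adjusted p = 0.022), a call lost without submerged replicate 2 or control replicate 1 or 3 (log2 fold change 1.88 to 2.48, adjusted p 0.054 to 0.0852). CYP71Z7 (Os02g0570700) rose by 3.18 ± 0.79 (adjusted p = 0.0144), lost without submerged replicate 2 or control replicate 3 (log2 fold change 2.76 to 2.88, adjusted p 0.0528 to 0.059), and KSL7 (Os02g0570400) had 2.03 (adjusted p = 0.265, or 0.00129 with the block). Flavonoid genes did not share one direction. Chalcone isomerase CHI (Os03g0819600) fell from 2.21, 3.16 and 2.40 to -1.23, 0.01 and 0.06 (log2 fold change -2.98 ± 0.56, adjusted p = 0.0035), and chalcone synthase CHS1 (Os11g0530600) was not called (log2 fold change -1.79, adjusted p = 0.119). Flavanone hydroxylase F3H† (Os04g0662600) rose by 1.72 ± 0.54 (adjusted p = 0.0391), a call lost without submerged replicate 2 or 3 or any control replicate (log2 fold change 1.28 to 1.86, adjusted p 0.056 to 0.143). The ligase 4CL3 (Os02g0177600) had 1.29 (adjusted p = 0.107, or 0.00604 with the block).

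Of 14 phosphate and iron genes 3 rose and none fell, or 3 and 1 with the block. The iron transporter IRT1 (Os03g0667500) rose from -4.96, -4.09 and -4.11 to -2.86, -1.77 and -1.88 (log2 fold change 2.22 ± 0.53, adjusted p = 0.0116). DMAS1† (Os03g0237100), which makes the iron chelator deoxymugineic acid, rose by 1.51 ± 0.42 (adjusted p = 0.024), a call lost without submerged replicate 1 or 2 or control replicate 1 (log2 fold change 1.16 to 1.57, adjusted p 0.0551 to 0.091). The phosphate transporter PT2 (Os03g0150800) rose by 1.44 ± 0.39 (adjusted p = 0.0204), lost without submerged replicate 2 or control replicate 1 (log2 fold change 1.2 to 1.22, adjusted p 0.0758 to 0.0803). Ferritin FER1† (Os11g0106700), which stores iron, was saturated on slide 1 in control leaves and had 0.06 (adjusted p = 0.952). Reference genes were not called, such as the actin ACT1 (Os03g0718100), with levels of 1.01, 1.55 and 1.66 and 1.34, 1.58 and 1.99 (log2 fold change -0.23, adjusted p = 0.647).

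Some probes crossed the background limit outright. At 154 loci (0.682%) a probe was well above background on all 3 submerged arrays and on no control array, and 149 of these were called higher. Their lower limits of fold had a median of 5.70 and a highest value of 1050, and 48 reached 10-fold. Of the 154, 106 were called higher in FR13A and 71 gained detection there too. The count was 317 without control replicate 3, where the rule asks for fewer arrays and the count can only grow. ADH2 was the one list member among them. At 275 loci (1.22%) detection was lost, and 246 of these were called lower, with a median limit of 3.39-fold, a highest of 297-fold and 51 that reached 10-fold. In FR13A 197 of the 275 were called lower and 86 lost detection too. The count was 825 without submerged replicate 3, again under a looser rule. List members that lost it were NCED5†, PIP2;4, PIP2;5, ERS2, RAB16B, RAB16C, CESA4, NR2†, EXPA1, DREB1C and BU1, with the limits given above. These limits hold for the background that the authors' software removed. With normexp background correction the folds of ADH2 and of the 9 of these members for which it was computed (all but RAB16B and RAB16C) were all below their limits. ADH2 and NCED5† were still called, at 482-fold higher and 21.8-fold lower. The other 8 lost their call in the limma fit over the arrays of both genotypes (adjusted p 0.238 to 0.743). Their folds were 6.98 for PIP2;4, 4.78 for PIP2;5, 3.8 for ERS2 and 3.55 for NR2†. Lower folds were 2.62 for CESA4, 2.39 for EXPA1, 2.03 for DREB1C and 1.76 for BU1. That fit held FR13A submerged replicate 2, whose normexp estimate failed. With normexp fitted on the 6 Goda Heenati arrays alone, DREB1C and BU1 lost their call (adjusted p = 0.198 and 0.279). PIP2;4, PIP2;5, ERS2, NR2†, CESA4 and EXPA1 stayed called there.

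Outside the lists, the highest log2 fold changes among loci well above background on all 6 arrays belonged to Os03g0305400 and Os05g0473000, which carry no name here. Os03g0305400 stood at 1.82, 2.40 and 2.27 in submerged and -5.82, -6.39 and -7.23 in control leaves (log2 fold change 8.64 ± 0.50, adjusted p = 3.27e-06). Os05g0473000 had 2.55, 4.67 and 3.61 and -5.63, -5.29 and -4.18 (log2 fold change 8.64 ± 0.72, adjusted p = 3.94e-05). The lowest belonged to Os05g0590300, with -5.48, -5.84 and -4.39 and 2.0, 3.00 and 3.51 (log2 fold change -8.07 ± 0.54, adjusted p = 9.25e-06), and Os05g0579600, with -4.36, -4.00 and -4.26 and 2.22, 3.76 and 3.85 (log2 fold change -7.48 ± 0.76, adjusted p = 0.000111). These 4 were picked for their fold changes in the same arrays. Like 43.3% of all loci, they had submerged and control arrays that did not overlap.

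Goda Heenati and FR13A were treated alike, and the difference between their responses was tested directly. FR13A had 4953 called loci (21.9%), with 10.1% higher and 11.9% lower. Of the 2055 loci that rose in Goda Heenati 1406 rose in FR13A as well, 68.4% of the Goda Heenati calls and 61.9% of the 2270 FR13A calls. Of the 2622 that fell, 1966 fell in FR13A, 75% and 73.3% of the calls. A further 645 higher and 654 lower loci were called in Goda Heenati alone, and 4 higher and 2 lower loci were called the opposite way in FR13A, but being called in a single genotype is no test of a difference. The difference between the responses was called at 21 loci (0.093%), 12 higher and 9 lower in Goda Heenati, or at 85 (0.377%) with the replicate block, which include all 21. Of the 21 loci 5 were well above background on all 12 arrays. At 10 of them no array of 1 genotype was, FR13A at 7 and Goda Heenati at 3, and there the test sets a measured change against values under the background limit. That count rests on single arrays: it was 43 without Goda Heenati submerged replicate 3, 7 without FR13A control replicate 1, and 9 to 13 without FR13A submerged replicate 2, FR13A control replicate 2 or 3, Goda Heenati submerged replicate 1 or 2, or Goda Heenati control replicate 1 or 2. No list member was among the 21 or the 85. ACO1, for example, had log2 fold changes of -3.58 in Goda Heenati and -0.64 in FR13A, a difference of -2.94 ± 0.91 (adjusted p = 0.532). For CYP99A3 the values were 3.58 and 1.27 (adjusted p of the difference = 1), and for HB2 5.65 and 7.32 (1).

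**Figure D5:**
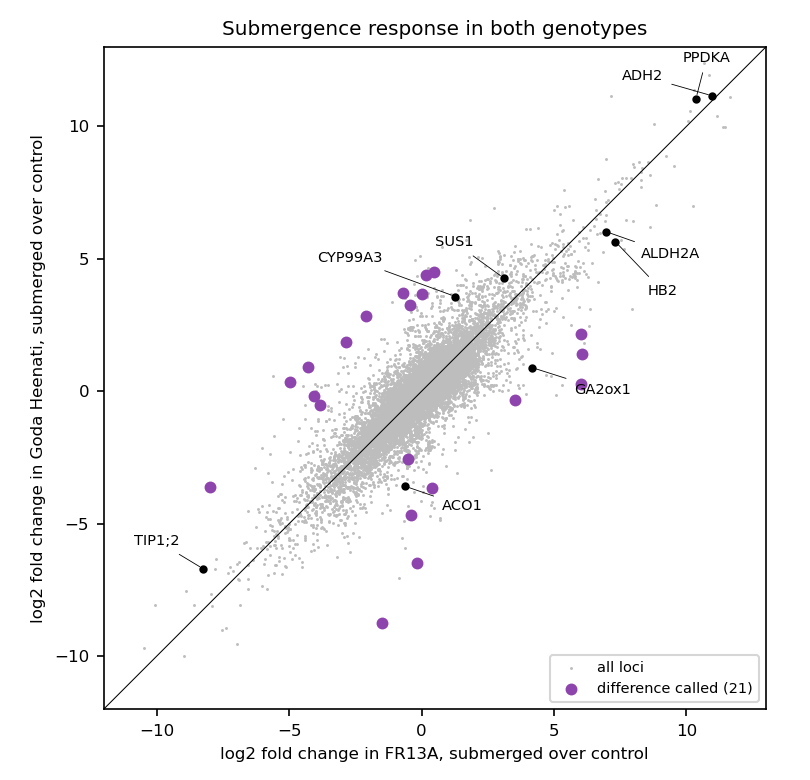
Log2 fold change in Goda Heenati against that in FR13A for 22576 loci, with the line of equal response; purple points are the 21 loci called for the difference between the responses and labelled points are named genes. ADH2, PPDKA and TIP1;2 lie near the line at its ends, and 12 of the 21 purple points lie above it and 9 below.

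The 2 loci with the largest called difference in each direction carry no name here. Os09g0359500 fell in Goda Heenati from -0.10, -0.63 and -1.01 to -8.90, -8.90 and -10.13, where all 3 arrays were under the background limit, at least 89.4-fold lower. That fold holds for the background that the authors' software removed. With normexp background correction the gene was 52.2-fold lower and still called (limma adjusted p = 0.0125). In FR13A all 6 arrays were under the background limit. Os12g0247700 fell in Goda Heenati from 2.35, 2.87 and 1.6 to -4.99, -3.58 and -4.10 and was likewise under the background limit on every FR13A array. The probes of these loci gave no FR13A response to compare with. Os11g0694000 and Os12g0202700 had the largest differences in the other direction, and both fell in FR13A. Os11g0694000 stood in FR13A at -2.02, -1.19 and -1.37 in control and -6.56, -7.10 and -5.83 in submerged leaves, and was not well above background in Goda Heenati, so that no response there was measured. Os12g0202700 was well above background on all 12 arrays, with Goda Heenati levels of -3.15, -3.72 and -4.02 in submerged and -4.01, -4.59 and -4.99 in control leaves. Its FR13A levels were -4.04, -5.41 and -4.31 and 0.04, -0.58 and -0.39 (difference 5.18 ± 0.56, adjusted p = 0.00928).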

How the data were processed

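Leaf RNA of the 6 Goda Heenati samples (3 submerged, 3 control) and of 6 FR13A samples was hybridised as Cy3-labelled cRNA, 1 colour and 1 sample to an array. The authors read the scans with Agilent Feature Extraction 10.5.1.1, per the file headers, and each deposited spot holds a linear-scale intensity whose background the software had already removed. The deposited value table of the authors holds log2 values whose column medians are 10.03, which differ by at most 0.00518 at any rank and correlate with each array's own log2 processed signal at r of 0.9975 or more. It served as an alternative.

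Control and outlier spots were left out, which gave 42418 probes from 45151 spots. The log2 processed signal had each array's 75th percentile subtracted. Probes had to be well above background on all 3 arrays of some group, which kept 33038, and the brightest kept probe stood for its locus. limma 3.58.1 in R 4.3.3 (lmFit, eBayes) fitted 4 group means over all 12 arrays (8 residual degrees of freedom), with Benjamini-Hochberg adjustment over 22576 loci. At 547 loci a value was missing because a spot was an outlier. A fold with no array of the dimmer group well above background is a lower limit, against the higher of that array's lowest well-above-background signal and the probe's own. Such a limit makes no allowance for sampling error.

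Gene lists, names and the set of arrays were chosen with earlier results of these data known. Of 401 loci listed 399 are on the array. The gene table (RefSeq, ASM3414082v1) held 277 of the names. It placed 262 within 1 Mb of the locus and 5 within 3 Mb, and 10 were dropped because they lay farther away or on another chromosome. Named genes were, from each list, up to 3 called members with the smallest adjusted p, a fixed set of genes, and 8 loci in no list. Every other named gene was chosen after its values were seen, so that all called members and those that pass only in another setting could be given, except that 1 counted list member is not reported here.

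Slide numbers equal replicate numbers. Same-numbered arrays deviated together from their group means in all 18 pairs (r 0.259 to 0.787, and 0.407 to 0.504 within Goda Heenati). For other numbers r was -0.554 to 0.033. Deviations from a group mean cancel within the group, so these lower values follow in part from the higher ones. The numbers pair the arrays, but a pairing of the plants and an effect of the slide cannot be told apart. The pairing comes from the data and from the slides. Values with the replicate block stand beside a result only where they change it. Nothing says whether the pooled plants of a group came from separate tanks, and p-values then measure the spread between these samples alone.

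In simulated data of 22029 loci the test of Goda Heenati submerged against control recovered 46% of 50 loci changed by 1.5 on the log2 scale. It recovered 61% of 100 changed by 2 and 92% of 50 changed by 3, none in the wrong direction, and called 9 unchanged loci. The simulated noise was independent between arrays, with no slide effect, saturation or background limit. Far fewer loci changed there than the 20.7% called in the real data, so these shares need not hold for the real arrays. Normexp background correction (offset 50), an alternative, used the median spot signals because the files hold no mean signal. The other alternatives were quantile and median scaling, other probe filters and the 6 arrays alone. No sequence is printed, since neither the files nor the gene table hold any.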

Additional observations from a re-analysis of the deposited data

Results flagged for a closer look

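Goda Heenati and FR13A differed in their response to submergence at 21 loci by the test of the difference itself. The 2 largest in each direction (Goda Heenati minus FR13A, log2) were -7.245 at Os09g0359500, -6.312 at Os12g0247700, 5.176 at Os12g0202700 and 5.310 at Os11g0694000. Of these, Os12g0202700 alone was well above background on all 12 arrays. The other 3 set a change in 1 genotype against values under the background limit in the other, so their fitted differences are not differences between measured responses. Of the 21 loci 5 were well above background on all 12 arrays, and at 10 no array of 1 genotype was. None of the 4 was called for the difference with normexp background correction or on slides 2 and 3 alone, but neither setting called the difference at any locus. The normexp fit also held FR13A submerged replicate 2, whose estimate failed. These 2 settings therefore say nothing particular to the 4 loci.

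Probes to which the array assigns no locus stood outside the comparison. Of 137 such probes kept, 11 were called higher and 2 lower in submerged Goda Heenati leaves by the same limma fit. Over all loci 9.1% were called higher and 11.6% lower, and the probes were not tested against those shares. Their median log2 fold change was 0.458, with values from -2.837 to 6.564. The difference from FR13A was called at 0 of them.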

How the results depend on the processing

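The count of called loci in Goda Heenati was 4677 (2055 higher, 2622 lower), with 21 for the difference from FR13A. Normexp background correction gave 1910, 1083, 827 and 0, and 4043 calls (2028 and 2015) when fitted on the 6 Goda Heenati arrays alone. In the 12-array normexp fit the estimate for FR13A submerged replicate 2 failed (r 0.807 with its own main values, against 0.9799 or more elsewhere). Slides 2 and 3 alone, an alternative chosen after seeing the data, gave 2629, 1204, 1425 and 0. Requiring every array to be well above background gave 1713 lower calls and 1 difference. The difference was called at 44 loci with quantile normalization, at 48 in the authors' deposited value table and at 85 with the replicate block, which moved the total to 6069. Single arrays left out gave 3589 to 4841 calls, 1511 to 2176 higher, 1973 to 2732 lower and 7 to 43 differences. Detection was gained at 158 to 317 loci, highest without Goda Heenati control replicate 3, and lost at 280 to 825, highest without submerged replicate 3. Leaving an array out relaxes the detection rule, so these counts cannot fall below the 154 and 275 of all arrays. They show no more than how many loci the array left out had kept from counting. The higher calls were 43.9% of all, 56.7% with normexp, 50.2% with normexp on 6 arrays and 52.7% with array median scaling, which moved the median of all loci from 0.09 to 0.21. Of 97 named results 71 were called, of which 31 stayed called in every setting and 53 without each Goda Heenati array. Normexp lost 30 of these calls, slides 2 and 3 lost 29, single Goda Heenati arrays left out lost 7 to 16 and other settings at most 6. The cause was not tested. No called value changed sign, and 40 sign changes fell on 12 values called in neither setting. Apart from the values given beside results above, the replicate block ended no call of a named result.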
